A study of Mus musculus with 15 samples.

Results

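Bone marrow-derived macrophages (BMDMs) lacking STAT5 were compared with STAT5-sufficient BMDMs after 2 h with recombinant mouse GM-CSF (rmGM-CSF, 20 ng/mL). The comparison rests on 5 of the 15 RNA-seq libraries of the series, chosen by genotype and treatment labels alone: 2 STAT5fl/fl libraries, from mice 112 and 113, and 3 STAT5cKO libraries, from mice 114, 115 and 116. Genes were included if their CPM (counts of a gene per 1000000 counts of the library) exceeded 1 in at least 2 of the 15 libraries, which kept 13005 of 55385 genes. All mice were BALB/c, labelled as 6 wk of age, and both genotypes carried floxed Stat5 alleles. STAT5cKO mice also carried Csf1r-iCre, a Cre recombinase driven by the Csf1r promoter, which the study describes as active in myeloid cells generally and in some lymphocytes of the spleen. No library from mice with the Cre and intact Stat5 was part of the design, so that loss of STAT5 and presence of the Cre cannot be told apart. The other 10 libraries came from the same mice after 2 h in serum-free DMEM (unstimulated) or in medium conditioned by 4T1 cells, a mouse mammary tumor line (4T1 CM). They served to estimate the spread between mice and to ask whether the genotype effect with GM-CSF differed from that under other treatments. According to the study's methods another STAT5fl/fl replicate failed quality control, and it is not analysed here.

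GM-CSF binds a receptor made of a specific alpha chain and a beta chain shared with other cytokines, and the kinase JAK2 bound to that receptor phosphorylates STAT5A and STAT5B. The phosphorylated STAT5 proteins pair, enter the nucleus and bind short palindromic DNA elements near target genes, among them genes for SOCS family proteins that feed back on the receptor. In myeloid cells GM-CSF is known for supporting survival and for shaping macrophages and dendritic cells with antigen-presenting and inflammatory functions, and the same receptor also feeds MAP kinase, PI3 kinase and NF-kB signaling.

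The deleted genes separated the genotypes. Stat5a (ENSMUSG00000004043), which spans bases 100859351 to 100885169 of chromosome 11 in GRCm38, was at 45.1 and 42.9 normalized CPM in the STAT5fl/fl libraries and at most 3 counts in any STAT5cKO library, at least 279-fold lower against a floor of 3 counts per library. Stat5b, its neighbor on the same chromosome (from 100780731 to 100850724), had 60.9 and 61.6 CPM against 0.0491, 0.178 and 0.0639 CPM. Library totals with GM-CSF ranged from 16016736 to 22877322 counts, and CPM below are normalized by the relative log expression method. Defining macrophage genes were abundant in every library, with 15 markers summing to 38550 to 39780 CPM in STAT5fl/fl and 46692 to 50393 CPM in STAT5cKO BMDMs. The higher sum in STAT5cKO BMDMs came from Lyz2, whose values are given below. Of the 15 markers, 10 had a log2 fold change below 0 and 5 above it (median -0.15). Of other cell types, T and NK cell markers summed to 310 to 355 CPM in STAT5fl/fl and 427 to 476 CPM in STAT5cKO libraries, of which Il7r alone was 298 to 344 and 419 to 468 CPM. B cell markers summed to 54.2 to 62.5 and 54.6 to 84.0 CPM, neutrophil markers to 6.48 to 8.64 and 7.65 to 12 CPM, dendritic cell markers to 95.1 to 102 and 103 to 106 CPM, and erythroid and megakaryocyte markers to 11.5 to 14.0 and 5.82 to 8.73 CPM. Cd3e, Cd3g, Cd8a and Trac (T cells) had no count with GM-CSF in either genotype, nor did Ms4a1 and Pax5 (B cells), Ly6g, S100a9 and Mpo (neutrophils) or Cpa3 and Fcer1a (mast cells), while the neutrophil genes Elane, Prtn3, Ctsg, Ltf and Lcn2 had no count in STAT5fl/fl libraries only. The share of counts from mitochondrial DNA was 1.78% and 1.94% in STAT5fl/fl and 1.5% to 1.55% in STAT5cKO libraries. Of the 14 tested mitochondrial genes, 3 were called lower (21.4%, against 6.24% of all tested genes). In the third of tested genes with the highest mean expression, 10.5% were called lower. The part of mitochondrial counts and of these markers in the differences below was not tested.

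With GM-CSF, 1275 genes differed between the genotypes at an adjusted p under 0.01 (edgeR's quasi-likelihood F test, Benjamini-Hochberg adjustment), which was 9.8% of the tested genes. Of these, 464 were higher in STAT5cKO BMDMs (3.57% of tested genes) and 811 were lower (6.24%). Large changes lay mainly on the lower side. A gene high in only 1 genotype can pass the CPM filter through that genotype, and the filter's part in this contrast was not tested. Of the lower genes 209 had a log2 fold change beyond -1, 57 beyond -2 and 23 beyond -3, while 71 of the higher genes exceeded 1, 5 exceeded 2 and 2 exceeded 3. The median size was 0.61 among the lower and 0.54 among the higher genes, and 317 lower and 207 higher genes changed by less than 0.5. In all 1275 genes the values of the 2 STAT5fl/fl libraries lay outside those of the 3 STAT5cKO libraries, as they did in 6366 of the 13005 tested genes (49%), called or not. The median log2 fold change of all tested genes was 0.00. With only 2 STAT5fl/fl mice the counts leaned on each of them: 784 genes were called without mouse 112 (256 higher, 528 lower) and 546 without mouse 113 (132 higher, 414 lower), against 909 to 1010 without any single STAT5cKO mouse. No called gene changed direction in any of these fits. These are bulk samples, so that fewer cells of a kind and less RNA per cell cannot be told apart.

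**Figure D1:**
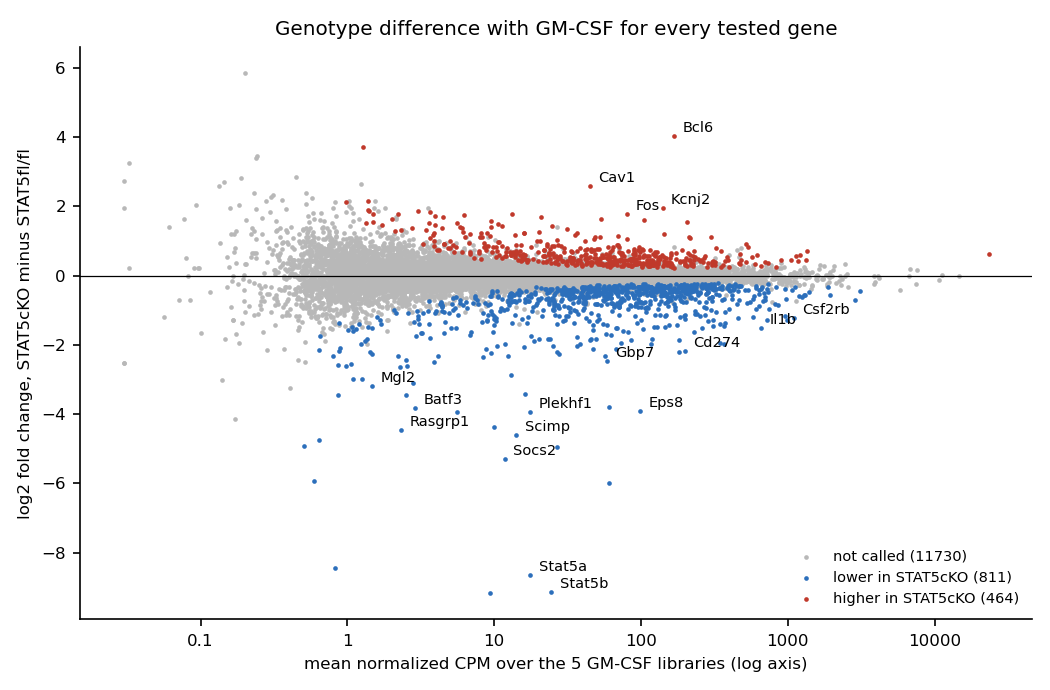
Each point is a tested gene, with its mean normalized CPM over the 5 GM-CSF libraries on a log axis and its log2 fold change (STAT5cKO minus STAT5fl/fl). Of the called genes, 811 lie below 0 and 464 above, and beyond Stat5a and Stat5b the lower side reaches further from 0 than the higher side.

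The lower genes with the smallest adjusted p-values, beyond Cish, Socs3, Ccl17 and other chemokine genes, encode proteins of varied function. Plekhf1 (ENSMUSG00000074170, chromosome 7 from 38216972 to 38228016), which encodes an endosomal lipid-binding protein, had 41.4 and 38.9 CPM in STAT5fl/fl and 2.50, 2.28 and 3.13 CPM in STAT5cKO libraries. Its log2 fold change was -3.95 ± 0.13 (standard error, SE, adjusted p = 6.69e-13), and the genotypes were far apart in every library. Cd274 (ENSMUSG00000016496, chromosome 19 from 29367455 to 29388095) encodes PD-L1, the ligand through which cells restrain T cells that carry PD-1. It had 366 and 378 CPM in STAT5fl/fl and 75.3, 82.6 and 90.4 CPM in STAT5cKO libraries, which gave a log2 fold change of -2.17 ± 0.076 (SE, adjusted p = 1.99e-12). Sav1, an adaptor of the Hippo kinases, fell from 231 and 239 CPM to 81.9, 85.2 and 85.8 CPM. Eps8, which binds and caps actin filaments, fell from 212 and 239 CPM to 17.8, 13.1 and 13.7 CPM, which gave a log2 fold change of -3.92 ± 0.15 (SE, adjusted p = 5.94e-12). Neither gene had a STAT5cKO value near the STAT5fl/fl range.

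Socs2, which encodes a SOCS protein that acts as a feedback inhibitor of cytokine receptors, had 28.9 and 28.4 CPM in STAT5fl/fl and 0.638, 0.848 and 0.639 CPM in STAT5cKO libraries. This was a log2 fold change of -5.30 ± 0.25 (SE, adjusted p = 9.64e-11), and with DMEM the means were 0.599 CPM in STAT5fl/fl and 0.820 CPM in STAT5cKO BMDMs. Scimp, a membrane adaptor of Toll-like receptor and MHC class II signaling, fell from 33.2 and 33.5 CPM to 1.08, 1.07 and 2.11 CPM. Rasgrp1, a nucleotide exchange factor that activates RAS, had 5.24 and 5.64 CPM against 0.0981, 0.312 and 0.320 CPM, and Pgf, a ligand of the VEGF receptor FLT1, had 12.9 and 12.4 CPM against 0.736, 0.669 and 1.15 CPM. The log2 fold change of Rasgrp1 was -4.47 (adjusted p = 5.07e-09) and that of Pgf was -3.93 (adjusted p = 1.19e-09). All 4 genes were at or under about 2 CPM in every STAT5cKO library. Without mouse 113, Rasgrp1 failed the CPM filter, so its call could not be tested in that fit. Rasgrp1 thus passed the filter only through STAT5fl/fl libraries, where it was high.

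The remaining lower genes of this kind had smaller folds. The choice by small adjusted p-value and by no overlap between genotypes favors genes with tight replicates. Dcun1d3, a regulator of cullin neddylation, fell from 97.2 and 122 CPM to between 21.5 and 22.6 CPM. Ddhd1, a phospholipase, fell from 155 and 147 CPM to between 37.4 and 44.6 CPM, and Hnrnpll, a splicing factor, from 403 and 370 CPM to between 117 and 133 CPM. Cdc42ep2, an effector of the small GTPase CDC42, Lrp12, a lipoprotein receptor family member, and Rara, the retinoic acid receptor alpha, had log2 fold changes of -1.62, -1.47 and -1.56. For each of these genes the lowest STAT5fl/fl library exceeded the highest STAT5cKO library by more than 2-fold.

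On the higher side Bcl6 stood apart. Bcl6 (ENSMUSG00000022508, chromosome 16 from 23965052 to 23988852) encodes a transcriptional repressor of inflammatory and cytokine-responsive genes. It had 16.5 CPM in each STAT5fl/fl library and 264, 265 and 276 CPM in the STAT5cKO libraries, which gave a log2 fold change of 4.02 ± 0.084 (SE, adjusted p = 7.58e-16). With DMEM its means were 146 CPM in STAT5fl/fl and 151 CPM in STAT5cKO, a log2 fold change of 0.05 that did not pass (adjusted p = 0.72). Kcnj2, an inward-rectifier potassium channel, had 46.8 and 55.9 CPM against 189, 210 and 199 CPM. For Kcnj2 too, the STAT5fl/fl libraries with GM-CSF lay below the STAT5fl/fl mean of 153 CPM with DMEM, whereas the STAT5cKO mean with DMEM was 202 CPM.

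Fos, a subunit of the AP-1 transcription factor, had 36.3 and 29.0 CPM in STAT5fl/fl and 104, 118 and 114 CPM in STAT5cKO libraries, which gave a log2 fold change of 1.78 ± 0.12 (SE, adjusted p = 8.98e-09). Fgd3, an exchange factor for CDC42, Cytip, which regulates the adhesion-related protein cytohesin, and Mylip, a ubiquitin ligase that degrades the LDL receptor, had log2 fold changes of 1.09, 1.63 and 1.14. Lpin2, a phosphatidate phosphatase of lipid synthesis, rose by a log2 fold change of 0.79. Gpx1, a selenium-containing peroxidase, and Selenow, another selenoprotein, had log2 fold changes of 0.91 and 1.13, and these were similar with DMEM, at 0.97 and 1.27. The highest folds among genes with at least 5 CPM were those of Bcl6 and of Cav1, the coat protein of caveolae, which had 10.6 and 11.6 CPM in STAT5fl/fl against 61.4, 87.1 and 53.1 CPM in STAT5cKO libraries (log2 fold change 2.60 ± 0.30, adjusted p = 7.32e-06). Hspa1b, an inducible heat shock protein, rose from 5.11 and 5.69 CPM to between 15.2 and 20.4 CPM, although its reads may be shared with the near-identical Hspa1a.

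**Figure D2:**
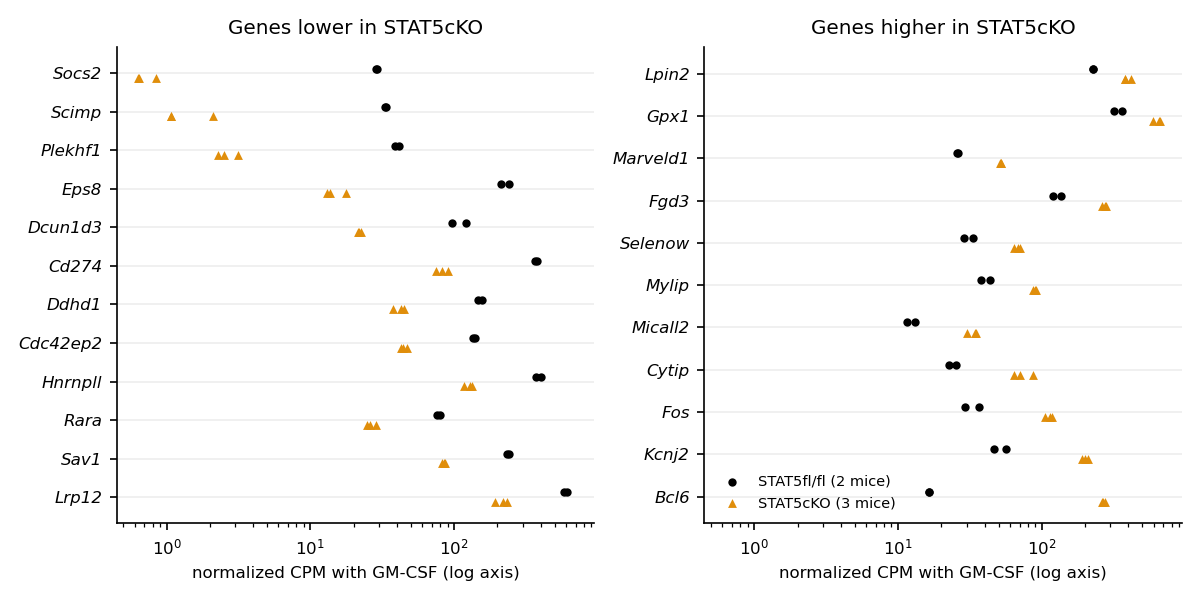
Normalized CPM (log axis) of the lower and higher genes with the smallest adjusted p-values, with a circle for each STAT5fl/fl library and a triangle for each STAT5cKO library with GM-CSF. Within a genotype the points nearly coincide for most genes, which the choice by small adjusted p-value and by no overlap favors. For Bcl6 the circles lie at 16.5 CPM and the triangles between 264 and 276 CPM.

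To show what the promoters of such genes hold, RefSeq promoter windows (GRCm38.p6, 250 bases before to 50 bases after an annotated start) were searched for TTCNNNGAA, the palindrome that STAT5 dimers are known to bind. The palindrome reads alike on both strands. A window was given for 9346 of the 13000 tested symbols other than Stat5a and Stat5b, and a gene counted as holding the motif when any of its windows did. The 250 bases before the start are printed below for 5 called genes, with the palindrome in capitals. The first is Bcl6, the gene with the largest rise (chr16:23981284-23981533, minus strand). Gbp7 is a guanylate-binding protein of intracellular defense (chr3:142530086-142530335, plus strand). Irf8 is a transcription factor of monocytes and dendritic cells (chr8:120736108-120736357, plus strand). Csf2rb2 is a close paralog of Csf2rb, the gene of the shared receptor beta chain (chr15:78305722-78305971, minus strand). The last is Rara (chr11:98939461-98939710, plus strand). The stretches of Bcl6 and Rara precede RefSeq starts that lie inside the gene as GENCODE annotates it, and the other 3 precede its outer end. None of these stretches overlapped an exon of the GENCODE annotation. All 5 genes hold the palindrome, and for a gene with several windows the window with the most palindromes is printed. The 5 stretches therefore do not stand for the promoters of called genes in general.
Bcl6: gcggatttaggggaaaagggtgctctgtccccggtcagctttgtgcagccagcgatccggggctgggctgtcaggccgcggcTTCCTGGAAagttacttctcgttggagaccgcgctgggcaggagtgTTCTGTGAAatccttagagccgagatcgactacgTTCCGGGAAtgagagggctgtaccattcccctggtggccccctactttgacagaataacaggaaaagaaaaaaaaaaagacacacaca
Gbp7: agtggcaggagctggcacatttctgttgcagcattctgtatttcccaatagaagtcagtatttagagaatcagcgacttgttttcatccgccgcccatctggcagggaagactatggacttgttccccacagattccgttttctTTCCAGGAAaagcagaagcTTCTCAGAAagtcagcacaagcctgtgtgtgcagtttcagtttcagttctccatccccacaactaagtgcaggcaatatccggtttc
Irf8: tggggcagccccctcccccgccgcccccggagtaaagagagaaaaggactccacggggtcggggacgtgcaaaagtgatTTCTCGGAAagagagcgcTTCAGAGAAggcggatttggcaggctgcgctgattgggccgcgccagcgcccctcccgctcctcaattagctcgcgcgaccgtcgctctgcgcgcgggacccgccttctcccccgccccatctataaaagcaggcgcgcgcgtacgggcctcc
Csf2rb2: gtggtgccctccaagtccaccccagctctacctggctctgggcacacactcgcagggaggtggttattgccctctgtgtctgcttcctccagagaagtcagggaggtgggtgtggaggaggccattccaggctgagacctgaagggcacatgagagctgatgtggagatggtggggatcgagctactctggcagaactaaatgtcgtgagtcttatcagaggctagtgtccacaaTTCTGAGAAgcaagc
Rara: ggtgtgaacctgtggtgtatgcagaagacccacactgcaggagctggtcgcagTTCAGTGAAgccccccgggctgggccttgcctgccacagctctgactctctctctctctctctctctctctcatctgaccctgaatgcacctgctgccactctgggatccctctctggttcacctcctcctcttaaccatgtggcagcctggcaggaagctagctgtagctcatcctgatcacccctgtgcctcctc

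Before this internal start Bcl6 holds 3 palindromes, the first bases of which lie 168, 122 and 88 bases before the start. Gbp7 holds 2, at 106 and 87 bases, and Irf8 holds 2, at 171 and 153 bases. Csf2rb2 and Rara hold 1 each. The palindrome with a spacer of 3 bases was present in 8.25% of tested genes with a window, in 9.89% of the genes called higher and in 10.5% of the genes called lower, so that the shares among called genes lay near the background. Divided by fold after the values were seen, the share among lower genes was 8.53% down to a log2 fold change of -1, 11.6% from -1 to -2, and 30.0% beyond -2 (12 of 40 genes with a window). The 12 were Cish, Ccl17, Gpr146, Rasgrp1, Rab15, Batf3, Gbp7, Sphk1, Trim30c, Gm4847, Tgm1 and Serpina3g. Of them, Rasgrp1 and Batf3 passed the CPM filter only through STAT5fl/fl libraries. With TTC and GAA separated by 4 bases, the spacing that STAT6 is known to prefer, 4 of the 40 genes beyond -2 held a match, and with a spacer of 2 bases (TTCNNGAA), added after the data were seen, the share was 12.5%. The median GC content of the windows was 60.7% over tested genes and 55.5% in the class beyond -2, and over all 27025 genes with a window, whose median GC content was 52.8%, the share with the 3-base spacer was 9.55%. These are matches of letters and no measurement of binding, and no test was run.

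**Figure D3:**
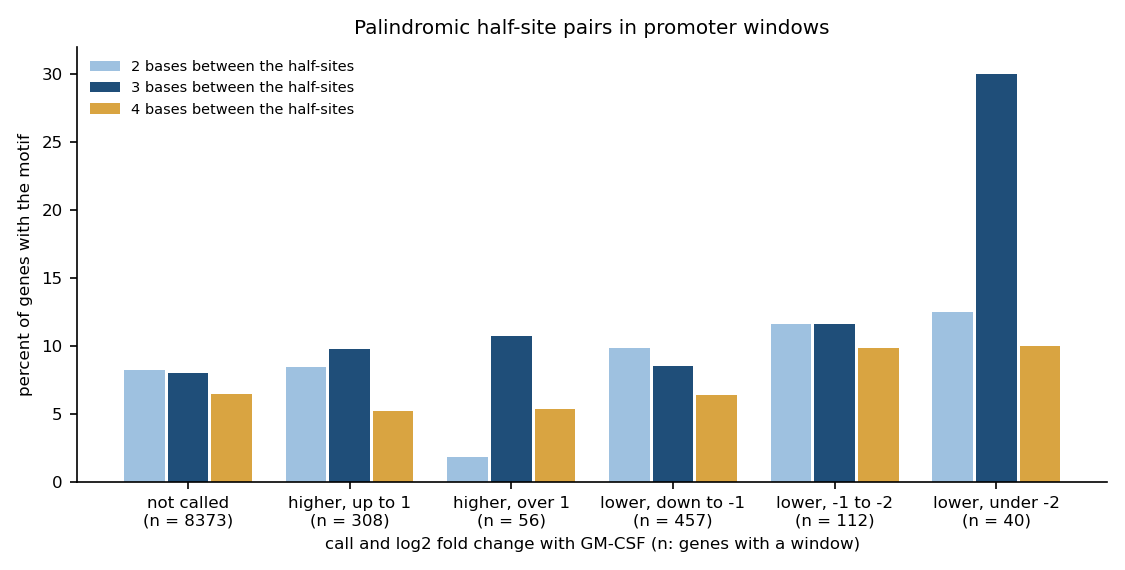
Percent of genes whose promoter window holds the palindrome with a spacer of 2, 3 or 4 bases, by call and log2 fold change with GM-CSF, where n is the number of genes with a window. The bar for the 3-base spacer reaches 30.0% among the 40 genes beyond a log2 fold change of -2 and lies between 8.01% and 11.6% in every other class.

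Among the genes of the GM-CSF receptor and JAK-STAT pathway, 5 of 27 tested members were lower and the others were not called (median log2 fold change -0.07). Without mouse 112 or mouse 113, 3 and 2 of them were lower, and without mouse 114, 2. The beta chain gene Csf2rb and its paralog Csf2rb2 both fell. Csf2rb, the beta chain shared by the receptors for GM-CSF, IL-3 and IL-5, had 1661 and 1681 CPM in STAT5fl/fl and 690, 689 and 782 CPM in STAT5cKO libraries, which gave a log2 fold change of -1.21 ± 0.072 (SE, adjusted p = 1.92e-09). Csf2rb2, its close paralog, had 890 and 892 CPM against 537, 523 and 548 CPM, a log2 fold change of -0.73. Reads may be divided imperfectly between these paralogs. The alpha chain gene Csf2ra, at 265 and 223 CPM against 256, 221 and 257 CPM, had a log2 fold change of 0.00 (adjusted p = 0.993), and its libraries overlapped. The calls of Jak2 and Stat3 were lost without single mice, as was that of Ptpn2, a phosphatase of JAKs and STATs: the highest adjusted p-values were 0.139, 0.0442 and 0.120, each without mouse 113.

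Genes of survival moved in both directions, with the same counts when any mouse was left out: 6 of 18 tested PIM kinase and BCL2 family genes were lower and 2 were higher (median -0.11). Pim1, a kinase that promotes survival and growth, had 549 and 536 CPM in STAT5fl/fl and 270, 246 and 264 CPM in STAT5cKO libraries (log2 fold change -1.06, adjusted p = 5.31e-07). Bcl2l1, which encodes the anti-apoptotic BCL-XL and is named here after its values were seen, fell from 362 and 406 CPM to 234, 245 and 268 CPM. Of the Bcl2a1 copies, which encode the anti-apoptotic protein A1, Bcl2a1d had a log2 fold change of -1.87, Bcl2a1b of -1.83 and Bcl2a1a of -2.44, and since these copies are near-identical the division of reads among them is uncertain. Of this list, 33.3% were lower and 11.1% higher, against 6.24% and 3.57% of all tested genes. The 2 higher genes encode pro-apoptotic proteins. Bcl2l11 (BIM) rose from 137 and 120 CPM to 202, 211 and 191 CPM, and Pmaip1 (NOXA) from 19.3 and 14.2 CPM to 31.1, 28.2 and 31.1 CPM. Bmf, also pro-apoptotic, was on the lower side (log2 fold change -0.83), and Mcl1, an anti-apoptotic gene with a log2 fold change of -0.14, did not pass (adjusted p = 0.214).

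Lineage transcription factors held more lower genes than most groups: 11 of 32 tested were lower (34.4%, against 6.24% of all tested genes). Bcl6 was among the 2 that were higher (6.25%, against 3.57%), and the median was -0.21. Each fit without a STAT5cKO mouse also had 11 lower genes. Batf3 was not tested without mouse 113, where it failed the CPM filter. It thus passed the filter only through STAT5fl/fl libraries, where it was high. Batf3, a factor required by cross-presenting dendritic cells, had 6.05 and 7.14 CPM in STAT5fl/fl and 0.393, 0.625 and 0.320 CPM in STAT5cKO libraries (log2 fold change -3.83 ± 0.27, adjusted p = 1.82e-08). Irf4, a factor of dendritic cells and of alternatively activated macrophages, fell from 29.4 and 29.3 CPM to 8.10, 6.02 and 7.22 CPM, and it was also lower with DMEM (22.4 against 10.9 CPM, adjusted p = 4.75e-05). Nfil3, a basic leucine zipper repressor, and Tfec, a relative of MITF in macrophages, had log2 fold changes of -1.83 and -1.39. Chosen after their values were seen, Irf8 fell from 253 and 260 CPM to 149, 141 and 163 CPM, and Irf5, which promotes inflammatory cytokine expression, from 898 and 910 CPM to 569, 569 and 544 CPM. In each of these 6 genes the libraries of the genotypes lay apart, as they did in every called gene and in 49% of all tested genes.

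Immediate early factors divided as well, with 8 of 28 lower and 3 higher (median -0.15). The lower genes were 7 without mouse 112 and 10 without mouse 113, and the higher genes fell to 1 without mouse 113. Ier3, a stress-response gene, had 84.3 and 89.8 CPM in STAT5fl/fl against 23.1, 24.6 and 25.8 CPM in STAT5cKO libraries. Egr2, a zinc finger factor, had 277 and 288 CPM against 106, 104 and 106 CPM, and Fosl2 (FRA2) had 138 and 136 CPM against 57.4, 65.2 and 59.6 CPM. Fos thus stood on the other side from Fosl2 within the AP-1 family. The list was 28.6% lower and 10.7% higher, against 6.24% and 3.57% of all tested genes. Fosb, at 1.5 and 0.912 CPM against 4.71, 4.73 and 3.32 CPM, lost its call without mouse 113 (adjusted p = 0.0362). Of feedback inhibitors of MAP kinase signaling, Errfi1, which restrains EGF receptor signaling, fell from 55.8 and 54.4 CPM to 24.3, 28.8 and 23.3 CPM, while Dusp5, a phosphatase of ERK, rose from 7.42 and 6.17 CPM to 14.3, 13.4 and 12.3 CPM.

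Cytokine genes were lower in 4 of 19 tested members (median -0.20), and 4 were lower in each fit that left out a mouse. With the mouse as a block, and in the likelihood ratio test, 1 was also higher. This was Il10, an anti-inflammatory cytokine named after its values were seen, with no count in STAT5fl/fl and 0.393, 0.357 and 0.256 CPM (at most 8 counts) in STAT5cKO libraries, and it did not pass the quasi-likelihood test (adjusted p = 0.0165). Il1b, an inflammasome-processed cytokine, had 923 and 1239 CPM in STAT5fl/fl and 392.4, 389 and 356 CPM in STAT5cKO libraries (log2 fold change -1.51 ± 0.16, adjusted p = 3.68e-06). Il1a fell from 27.5 and 33.7 CPM to 7.56, 11 and 9.01 CPM, Osm from 13.5 and 11.1 CPM to between 5.05 and 6.20 CPM, and Tgfb1 from 538 and 532 CPM to between 325 and 348 CPM. Tnf, which encodes tumor necrosis factor, had 632 and 659 CPM against 705, 716 and 729 CPM, a log2 fold change of 0.15 that did not pass (adjusted p = 0.408). Among NF-kB subunits and inhibitors, 5 of 22 were lower and 2 were higher, with 2 lower without mouse 112 or mouse 113, 3 lower without mouse 116, and 1 higher without mouse 113, 114, 115 or 116. Rel, the subunit c-REL, fell from 374 and 395 CPM to 259, 258 and 239 CPM. Lower shares were 21.1% of cytokine genes and 22.7% of NF-kB genes, against 6.24% of all tested genes. The higher share of NF-kB genes was 9.09%, against 3.57%.

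Of cytokine and growth factor receptors, 8 of 33 were lower and 4 were higher, with 5 lower without mouse 113. Il4ra, the receptor chain for IL-4 and IL-13, fell from 208 and 209 CPM to 71.5, 74.5 and 78.7 CPM (log2 fold change -1.48 ± 0.077, adjusted p = 4.39e-10). Kit, the stem cell factor receptor, fell from 23.6 and 19.5 CPM to 6.13, 6.02 and 3.77 CPM. Kit is also a mast cell marker, and of the 9 mast cell and basophil markers, which summed to 19.9 to 23.8 CPM in STAT5fl/fl and 3.96 to 6.28 CPM in STAT5cKO libraries, 6 had no count in the former and 7 had none in the latter. Their part in the result was not tested. Il1r1, the signaling receptor of IL-1, rose from 1.43 and 1.88 CPM to 6.13, 5.35 and 4.99 CPM, and Tnfrsf1b, a TNF receptor, from 969 and 873 CPM to 1330, 1480 and 1392 CPM. Thus Il1r1 was higher and both IL-1 genes were lower in the same libraries. Of the tested receptors, 24.2% were lower and 12.1% higher, against 6.24% and 3.57% of all tested genes.

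Interferon-stimulated genes were not lower as a block: 8 of 42 were lower and 2 were higher (median -0.12), with 5 lower without mouse 113. In this list 19.0% were lower and 4.76% higher, against 6.24% and 3.57% of all tested genes. The lower genes with the smallest adjusted p-values were guanylate-binding proteins of cell-autonomous defense. Gbp7 had 100 and 130 CPM in STAT5fl/fl and 17.1, 20.0 and 25.6 CPM in STAT5cKO libraries, and Gbp5, which promotes inflammasome activity, had 190 and 232 CPM against 45.6, 56.4 and 60.2 CPM. Their log2 fold changes were -2.48 and -1.97, and those of Gbp3 and Gbp2 were -1.21 and -0.95. The Gbp genes lie in clusters of related copies, so that reads may be shared among them. Usp18, a negative regulator of interferon signaling, and Oas3, an antiviral enzyme, were higher by log2 fold changes of 0.60 and 0.41, with highest adjusted p-values of 0.0176 and 0.0427 in fits without mouse 112.

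Of antigen presentation and T cell interaction genes, 8 of 25 costimulatory and checkpoint molecules were lower and 1 was higher, Tnfsf9 (4-1BB ligand), at 33.3 and 30.4 CPM against 44.5, 49.0 and 51.6 CPM. Beyond Cd274, most of these calls depended on the STAT5fl/fl mice, since 2 were lower without mouse 112 and 1 without mouse 113, and 5 were lower without mouse 114. In the MHC class II pathway, 2 of 12 genes were lower, 1 without mouse 112 and 7 without mouse 113, and 11 of 12 had a log2 fold change below 0 (median -0.65). The likelihood ratio test called 6 of them lower, and 7 were called without the low-count filter or in a model of the 5 GM-CSF libraries alone. Lgmn, a lysosomal protease of antigen processing, fell from 1630 and 1616 CPM to between 1068 and 1143 CPM, and it was lower to a like extent with DMEM (log2 fold change -0.63 against -0.56). Cd74, the invariant chain, had 1788 and 1211 CPM in STAT5fl/fl and 919, 727 and 1064 CPM in STAT5cKO libraries and did not pass (adjusted p = 0.0183). The spread between the STAT5fl/fl mice was wider for Cd74 than for Lgmn.

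Markers of macrophage polarization were lower in 8 of 24 cases and higher in 1 (median -0.20), with 6 lower without either STAT5fl/fl mouse. As shares, 33.3% were lower and 4.17% higher, against 6.24% and 3.57% of all tested genes. The genes lower with GM-CSF included lectins that are commonly used as markers of alternative activation. Clec10a fell from 25.7 and 21.8 CPM to 5.54, 3.93 and 4.99 CPM, Mgl2, its close paralog, from 3.18 and 3.17 CPM to 0.540, 0.178 and 0.320 CPM, and Mrc1, the mannose receptor CD206, named after its values were seen, from 293 and 350 CPM to 108, 84.9 and 72.7 CPM. Without mouse 112 or mouse 113, Mgl2 failed the CPM filter, so its call could not be tested in those fits. Mgl2 thus passed the filter only through the STAT5fl/fl libraries with GM-CSF, where it was high. Clec7a, the beta-glucan receptor Dectin-1, fell from 805 and 930 CPM to 397, 371 and 378 CPM. Hbegf, an EGF receptor ligand, fell from 26.8 and 26.9 CPM to 3.34, 3.53 and 4.28 CPM (log2 fold change -2.87 ± 0.15, adjusted p = 3.54e-10). Mrc1 was lower with DMEM as well, at 188 against 80.7 CPM (adjusted p = 0.00175). Its interaction of genotype and treatment against DMEM did not pass (adjusted p = 0.329). Hbegf, Mgl2 and Clec10a did not pass with DMEM, which alone does not show that their genotype effect differed between treatments. Ptgs2, on the same list, was also lower with GM-CSF (log2 fold change -0.75), and the higher gene was Spp1 (0.70). Members not called included Cd163, Folr2, Tgm2 and Arg1, named after their values were seen. Their log2 fold changes were 0.52, 0.32, 0.07 and -2.54. Among pattern recognition genes the directions were mixed, with 7 of 30 Toll-like receptor and C-type lectin genes higher and 4 lower (3 higher and 2 lower without mouse 112, 4 and 1 without mouse 113). Clec4e (Mincle) rose from 348 and 391 CPM to 616, 688 and 647 CPM.

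All 3 chains of complement C1q, a product of tissue macrophages, were lower with GM-CSF. C1qa had 297 and 389 CPM in STAT5fl/fl and 165, 156 and 157 CPM in STAT5cKO libraries, C1qb 356 and 417 against 226, 186 and 201 CPM, and C1qc 748 and 742 against 490, 437 and 464 CPM. The log2 fold changes were -1.11, -0.92 and -0.68 with GM-CSF, -0.69, -0.89 and -0.48 with DMEM, and -0.82, -0.91 and -0.54 with 4T1 CM. The interaction did not pass for any of the 3 genes, with adjusted p-values from 0.47 to 0.965 against DMEM and from 0.71 to 0.988 against 4T1 CM. Lyz2, lysozyme, had 17077 and 18137 CPM against 25702, 28599 and 27311 CPM, a log2 fold change of 0.63 that lost its call without mouse 112 (adjusted p = 0.0533) and without mouse 113 (0.0368).

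Genes of matrix and adhesion leaned to the higher side. Of 36 tested matrix proteins and remodeling enzymes, 7 were higher and 2 lower (median log2 fold change 0.37), with 5 higher without mouse 112, 3 without mouse 113, and 14 in the likelihood ratio test or with the 5 GM-CSF libraries alone. Thbs1, thrombospondin 1, rose from 19.2 and 13.4 CPM to 48.9, 36.1 and 39.5 CPM, Adam8, a membrane protease, from 899 and 880 CPM to 1299, 1309 and 1322 CPM, and P4ha2, which hydroxylates collagen, from 3.37 and 4.03 CPM to 7.46, 8.52 and 8.12 CPM. Lox, which crosslinks collagen, had 1.56 and 1.29 CPM against 5.69, 4.06 and 5.82 CPM, and its call was lost without mouse 113 (adjusted p = 0.0178). Plau, the urokinase plasminogen activator, was lower, from 753 and 650 CPM to 362, 414 and 439 CPM. Fibroblast and stromal markers moved with this group: the 11 markers summed to 5.85 to 7.35 CPM in STAT5fl/fl and 13.4 to 16.6 CPM in STAT5cKO libraries, Lum and Thy1 had no count in either genotype, and Sparc, which is on both lists, rose from 0.187 and 0.107 CPM to 1.57, 1.87 and 2.62 CPM (adjusted p = 0.0845 without mouse 113). Their part in the result was not tested. Of 16 integrin genes, Itga4, Itga6, Itgav and Itgb2 were higher, by log2 fold changes of 0.57, 0.40, 0.58 and 0.39, and only 1 of the 16 was higher without mouse 113.

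Stress and metabolic programs differed in direction. Of 28 tested ATF4 target genes of the amino acid stress response, 15 were lower and the others were not called (median log2 fold change -0.41), and 25 had a log2 fold change below 0. Without mouse 112 the lower genes numbered 10 and without mouse 113 they numbered 4, against 11 or 12 without a STAT5cKO mouse. Cars and Aars, aminoacyl-tRNA synthetases, fell from 94.8 and 100 CPM to between 63.7 and 69.8 CPM and from 188 and 203 CPM to between 146 and 148 CPM. Trib3, a pseudokinase induced by ATF4, fell from 31.5 and 36.4 CPM to 20.6, 21.9 and 18.2 CPM. Atf4 itself, at 491 and 542 CPM against 410, 420 and 426 CPM, did not pass (adjusted p = 0.0122). The changes in this group were small beside those of the leading genes, and the largest called was that of Chac1, an enzyme that degrades glutathione and is named after its values were seen, at a log2 fold change of -0.86.

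Among glycolysis and hypoxia-inducible genes 4 of 29 were lower and 1 was higher, and 4 were lower in each fit without a mouse. Ndrg1 fell from 436 and 459 CPM to 183, 180 and 178 CPM, and the glycolytic genes Hk2 (hexokinase 2), Slc2a1 (the glucose transporter GLUT1) and Pfkp (phosphofructokinase) had log2 fold changes of -0.77, -0.49 and -0.48. Of lipid-handling genes 4 of 34 were lower and 4 were higher, with 3 and 1 without mouse 112 and 2 and 1 without mouse 113. The cholesterol exporters moved apart, with Abcg1 falling from 836 and 874 CPM to 435, 415 and 455 CPM while Abca1 had 359 and 351 CPM against 607, 526 and 519 CPM, a call that was lost without mouse 112 (adjusted p = 0.0154) and without mouse 113 (0.0252). Of 24 tested cholesterol synthesis and uptake genes, 0 passed edgeR's quasi-likelihood test and 0 passed in DESeq2, while 7 had an unadjusted p under 0.05 and 22 had a log2 fold change below 0 (median -0.34). In a model of the 5 GM-CSF libraries alone 7 were called lower, and 3 were without mouse 115. Ribosome biogenesis and cell cycle genes lay near or below the background, with 2 of 40 lower (1 without mouse 112, 113, 114 or 115) and 1 of 39 higher (0 without mouse 113). Of prostaglandin and leukotriene genes 5 of 20 were lower and 2 were higher (4 and 1 without either STAT5fl/fl mouse): Pla2g15, a lysosomal phospholipase, fell from 310 and 279 CPM to 130, 132 and 141 CPM, and Alox5, which starts leukotriene synthesis, rose from 7.17 and 8.53 CPM to 18.6, 16.5 and 18.1 CPM. Zfp36l1, which destabilizes mRNAs, fell from 544 and 561 CPM to 234, 187 and 209 CPM.

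Of p53 targets 5 of 18 were higher and 2 lower (2 and 2 without mouse 112, 1 and 1 without mouse 113, and 3 higher without mouse 114 or 116), with Mdm2, the ubiquitin ligase of p53, at 274 and 232 CPM against 394, 436 and 411 CPM. Of NRF2 antioxidant genes and glutathione peroxidases 4 of 25 were higher and 1 was lower (2 higher without mouse 112, 113, 115 or 116), with Srxn1, which repairs oxidized peroxiredoxins, at 94.4 CPM in each STAT5fl/fl library against 157, 164 and 135 CPM. In the MYC network 3 of 18 were higher and 3 lower (2 and 1 without mouse 112 or 115, 0 and 1 without mouse 113, 1 and 3 without mouse 116), and Cdkn1a, the cell cycle inhibitor p21, fell from 829 and 905 CPM to 498, 466 and 466 CPM, although with DMEM it was higher in STAT5cKO BMDMs (79.1 against 153 CPM, adjusted p = 1.52e-05).  Cdkn1a is also on the list of p53 targets, where it was among the lower genes.

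**Figure D4:**
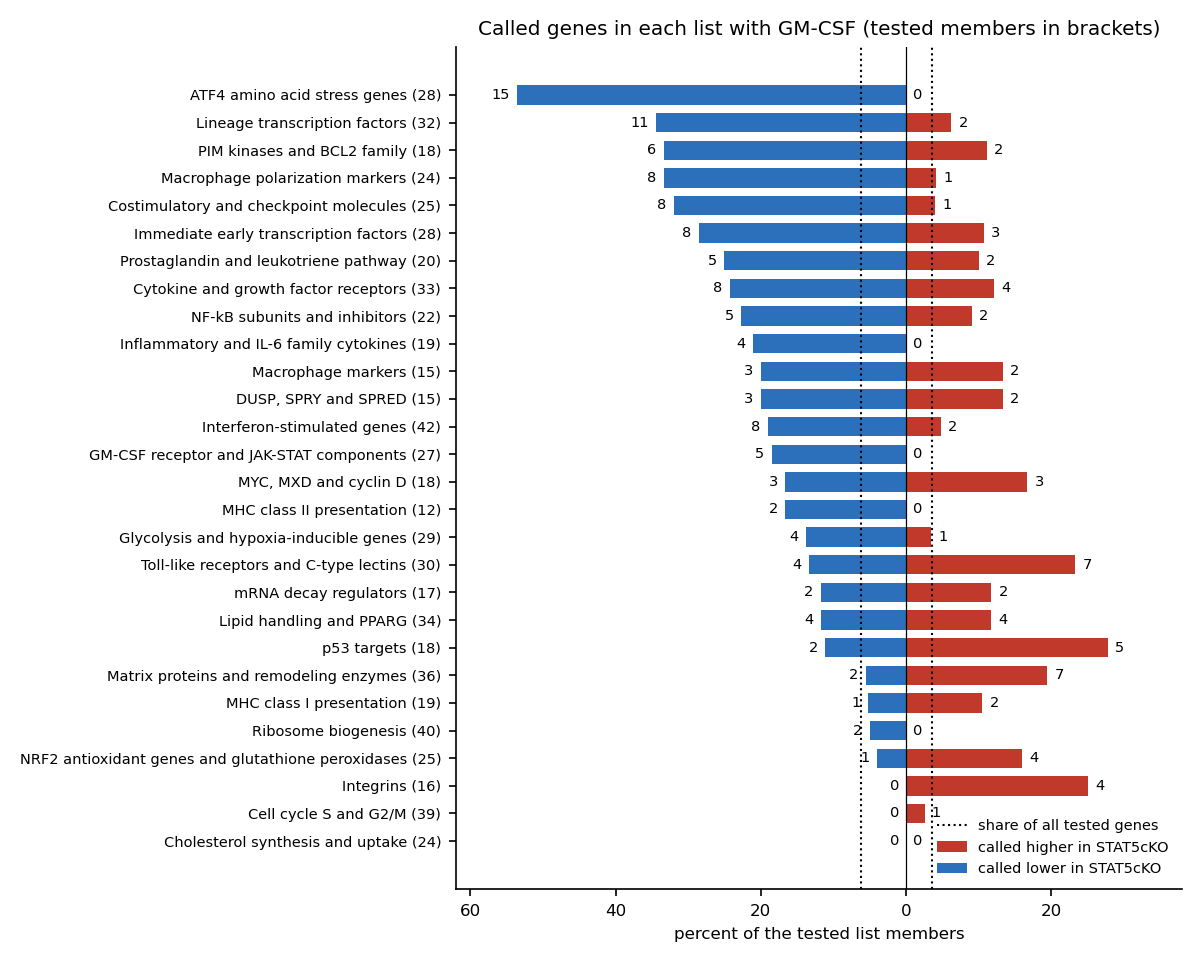
For each list with at least 10 tested members, percent of these called higher (right) or lower (left) in STAT5cKO BMDMs with GM-CSF, with the number called at the end of each bar and the shares of all tested genes (3.57% higher and 6.24% lower) as dotted lines. Of these lists, the longest bar to the left is that of ATF4 target genes, 15 of 28, and p53 targets, with 5 of 18, reach furthest to the right.

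Whether the genotype effect with GM-CSF differed from that without stimulation was tested as an interaction. With DMEM 324 genes differed between the genotypes (2.49% of tested genes). The effect with GM-CSF lay above that with DMEM in 115 genes (0.884%) and below it in 289 (2.22%). With the mouse as a block the numbers were 179 and 339. The counts above and below were 36 and 137 without mouse 112, 19 and 115 without mouse 113, and between 56 and 71 above without a STAT5cKO mouse. Bcl6 had the largest such difference above 0 among the named genes, 3.97 on the log2 scale (adjusted p = 1.17e-13), from 0.05 with DMEM to 4.02 with GM-CSF. Plekhf1 went from 0.04 to -3.95, Sav1 from 0.02 to -1.48, Hnrnpll from 0.05 to -1.62 and Stk38l, a kinase of the NDR family, from 0.28 to -1.53. Rab7b, a small GTPase of late endosomes, and Gramd1b, a cholesterol transfer protein, had log2 fold changes of -0.32 and -0.23 with DMEM and 0.74 each with GM-CSF, so that their direction differed between treatments, and the DMEM difference of Gramd1b did not pass (adjusted p = 0.0392).

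The same question was asked against 4T1 CM. With 4T1 CM 1001 genes differed between the genotypes (7.7% of tested genes). The genotype effect with GM-CSF lay above that with 4T1 CM in 19 genes (0.146%) and below it in 172 (1.32%), and with the mouse as a block the numbers were 44 and 233. Without mouse 112 they were 10 and 81, and without mouse 113 they were 5 and 74. Nfil3 had a mean of 92.2 CPM in STAT5fl/fl and 127 CPM in STAT5cKO BMDMs with 4T1 CM, a log2 fold change of 0.47 against -1.83 with GM-CSF. Ptgs2, the inducible cyclooxygenase COX-2, likewise had log2 fold changes of 1.0 with 4T1 CM and -0.75 with GM-CSF. Trib1, a pseudokinase, and Arid5a, an RNA-binding protein that stabilizes inflammatory mRNAs, had log2 fold changes of 0.21 and 0.20 with 4T1 CM and of -1.54 and -1.26 with GM-CSF. Dcun1d3 differed little between the genotypes with 4T1 CM (-0.12) or DMEM (-0.15) and had -2.32 with GM-CSF. Kcnj2 had a log2 fold change of 0.22 with 4T1 CM against 1.96 with GM-CSF, and it was low in both genotypes with 4T1 CM, at 5.73 and 6.67 CPM.

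**Figure D5:**
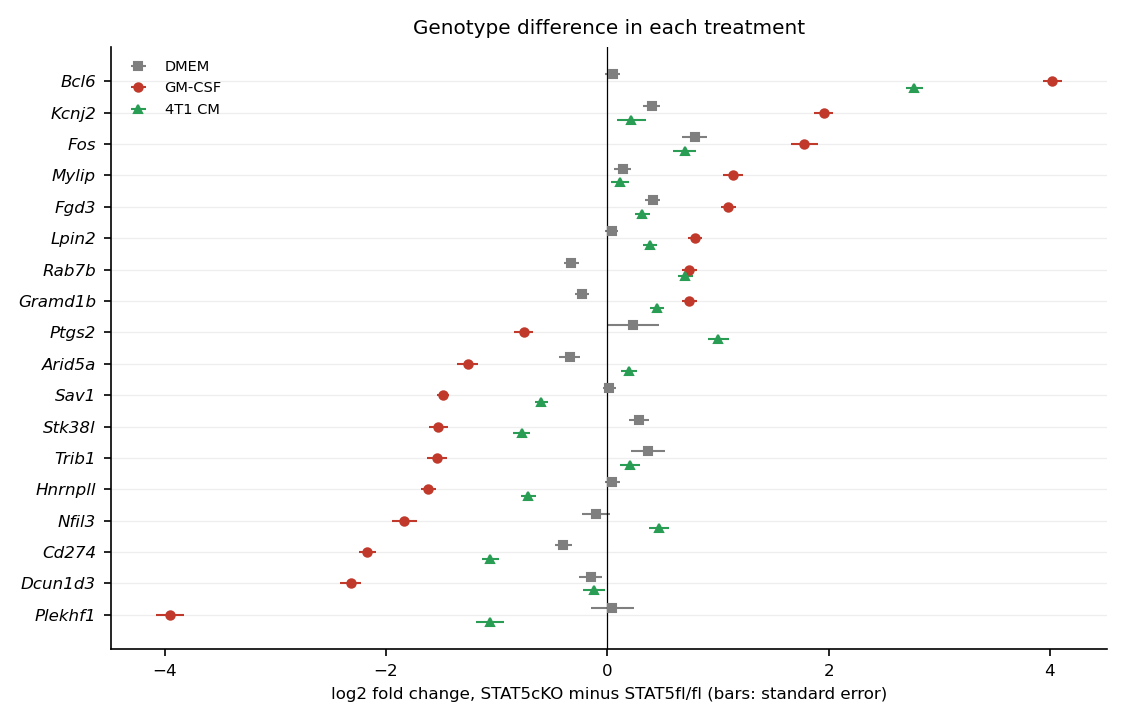
Log2 fold change (STAT5cKO minus STAT5fl/fl) with its standard error in DMEM (squares), GM-CSF (circles) and 4T1 CM (triangles) for the named genes with the smallest adjusted p-values in the interactions. For Bcl6 the effect is 0.05, 4.02 and 2.78 in these treatments, and for Nfil3, Ptgs2, Trib1 and Arid5a the circle lies below 0 and the triangle above 0.

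Around the deleted locus on chromosome 11, called genes were looked for after the data were seen. Of 33 other tested genes within 500000 bases of Stat5a and Stat5b, 3 were called lower (9.09%, against 6.24% of all tested genes). They were Stat3, Cavin1 and Atp6v0a1, which follow Stat5a in this order. Atp6v0a1, a subunit of the proton pump of endosomes and lysosomes, had 1453 and 1427 CPM in STAT5fl/fl and 648, 657 and 625 CPM in STAT5cKO libraries (log2 fold change -1.16 ± 0.074, adjusted p = 4.83e-09). With DMEM its means were 601 and 524 CPM and did not differ significantly (adjusted p = 0.126). Cavin1, a coat protein of caveolae, had 14.7 and 19.6 CPM against 8.39, 9.24 and 9.14 CPM, with an adjusted p of 0.0819 without mouse 113. The annotated ends of Stat5a (100885169) and Stat3 (100885098) overlap, on opposite strands, and the counts were made by strand. By level, 10.5% of the genes were called lower in the third with the highest mean expression and 2.63% in the third with the lowest, and by chromosome the share of lower genes ran from 4.55% on chromosome 13 to 8.75% on chromosome 18, leaving out the Y chromosome and mitochondrial DNA.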

How the data were processed

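RNA of BMDMs from 2 STAT5fl/fl and 3 STAT5cKO mice was sequenced after DMEM, rmGM-CSF or 4T1 CM, and groups were taken from the library labels. Per the study's methods and the submitters' processing notes, the authors trimmed the reads with Trimmomatic 0.33, aligned them to GRCm38 with HISAT2 2.1.0 and counted stranded fragments per gene with featureCounts 1.6.2. The values used are the counts as deposited, without normalization. The total per library was 16016736 to 22883108 counts, so that a CPM of 1 is 16.0 to 22.9 counts, and detection was limited at 3 counts, a floor that covers counting error only. Gene symbols and exon lengths came from GENCODE M21, and 55144 of 55385 identifiers had a symbol.

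Differential expression was computed with edgeR 4.0.16 (R 4.3.3), using relative log expression factors (0.945 to 1.08), the filter given above, a model of 6 groups over all 15 libraries, and the quasi-likelihood F test. Benjamini-Hochberg adjustment covered the 13005 tested genes of each comparison, and genes were called at an adjusted p under 0.01. Standard errors are the log2 fold change divided by the square root of F. Gene lists (35 lists with 818 entries) are described by counts and medians, without a set test. The genes named are Stat5a and Stat5b, the 12 per direction with the smallest adjusted p and no overlap between genotypes, the 6 per direction with the largest fold at 5 CPM or more, up to 4 called members per direction and list, and 6 per direction and interaction, leaving out Cish, Socs3, Ccl17, chemokines and their receptors, and predicted genes. Bmf, Mcl1, Csf2ra, Jak2, Tnf, Cd74, Atf4, Cavin1 and Atp6v0a1 were added after their values were seen. Some genes that met this rule are not reported here. The comparison, the gene lists and the naming rule were chosen with earlier results of these data known.

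Libraries with the same number in their labels were taken as coming from the same mouse. In STAT5fl/fl groups of 2 libraries the deviations from the group mean mirror each other, so that mice 112 and 113 share their correlations. Over the 10 pairs with a GM-CSF library, deviations of libraries from the same mouse correlated at 0.12 to 0.214. The mouse was therefore also used as a random effect (limma 3.58.1) or, for interactions, as a fixed block. The other alternatives were TMM, no low-count filter, filterByExpr, DESeq2 1.42.0, the likelihood ratio test, the 5 GM-CSF libraries alone, an adjusted p of 0.05, and the exclusion of each mouse. The steps were tested on simulated data.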

Additional observations from a re-analysis of the deposited data

Results flagged for a closer look

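The genotype effect of the following named genes with GM-CSF differed from that under another treatment, by the interaction term of the edgeR model at an adjusted p under 0.01. Differences are given on the log2 scale, as the effect with GM-CSF minus the effect with the other treatment. Against DMEM, the difference was above 0 for Bcl6 3.97, Kcnj2 1.55, Lpin2 0.75, Rab7b 1.07 and Gramd1b 0.97. It was below 0 for Plekhf1 -3.99, Cd274 -1.77, Sav1 -1.50, Dcun1d3 -2.17, Hnrnpll -1.66 and Stk38l -1.81. Against 4T1 CM, the difference was above 0 for Bcl6 1.25, Kcnj2 1.74, Fgd3 0.78, Fos 1.08 and Mylip 1.02. It was below 0 for Plekhf1 -2.89, Dcun1d3 -2.20, Nfil3 -2.30, Ptgs2 -1.76, Trib1 -1.75 and Arid5a -1.46. The GM-CSF libraries are shared by both comparisons. The difference of Fos from 4T1 CM was no longer called without mouse 113, and each other difference named here was called in each fit without a mouse. Groups of 2 and 3 libraries are too small for a test of single outlying samples.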

How the results depend on the processing

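With 2 STAT5fl/fl mice, the counts of called genes depended most on these mice, and no called gene changed direction in any alternative. Leaving out each mouse in turn gave 546 to 1010 genes for the genotype effect with GM-CSF (132 to 380 higher, 414 to 638 lower), 134 to 271 for its difference from the effect with DMEM (19 to 71 above 0, 115 to 200 below) and 79 to 143 for its difference from that with 4T1 CM (5 to 13 above, 74 to 130 below). At an adjusted p of 0.05 the genotype effect had 2145 genes (897 higher, 1248 lower), and the differences from DMEM and 4T1 CM had 622 (217 above 0) and 346 (62 above, 284 below). With the replicate block, 1242 genes differed between the genotypes with GM-CSF, and the interactions had 518 genes (179 above 0) and 277 genes (44 above 0). For the difference from 4T1 CM, DESeq2 called 308 genes (49 above 0, 259 below), the likelihood ratio test 302 (52 above 0), and the fit without a low-count filter 31 above 0. The remaining counts over all tested genes stayed within 1.5 times their value under TMM, filterByExpr, DESeq2, the likelihood ratio test and the 5 GM-CSF libraries alone. Counts within gene lists moved more. Among others, the likelihood ratio test called 6 immediate early genes higher instead of 3, and polarization markers called higher went from 1 to between 2 and 5 under filterByExpr, DESeq2, the likelihood ratio test, no filter or the 5 GM-CSF libraries alone. The last of these also gave 8 lower Toll-like receptor and lectin genes instead of 4, 5 higher prostaglandin genes instead of 2, and 4 higher NF-kB and lineage factor genes each instead of 2. Of 166 named genes, 110 kept their call in every alternative that tested them and 56 lost it in at least 1. Losses were most frequent in the fits without mouse 112 or 113, which leave 1 STAT5fl/fl library per treatment. Mgl2 was not tested in either of these fits, and Batf3 and Rasgrp1 were not tested without mouse 113, since they failed the low-count filter there. Each of these genes passed the filter only through STAT5fl/fl libraries, where it was high. TMM lost Max and Spred1, filterByExpr lost Max, and the replicate block changed no call of a named gene. A low-count gene is limited by depth, since 3 counts correspond to 0.131 to 0.187 CPM. The cause of these changes was not tested.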
